A study of Mus musculus with 8 samples.

Results

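A set of 10 genes that mark tissue macrophages was followed through the RNA-seq libraries of the neonatal mouse cochlea. The genes are the receptors *Csf1r* and *Cx3cr1*, the complement genes *C1qa*, *C1qb* and *C1qc*, the adaptor genes *Tyrobp* and *Fcer1g*, the leukocyte phosphatase gene *Ptprc*, and *Aif1* and *Cd68*. They were taken by symbol from the 36536 genes with counts, as a set of known macrophage genes picked with earlier results of these data in view. All 10 were found in the NCBIM37 (mm9) annotation, and all 10 passed the filter on low counts in every comparison.

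Macrophages are resident phagocytes of the cochlea, found in the lateral wall, the spiral ganglion and beside the blood vessels, and they are a lineage apart from the hair cells and supporting cells of the sensory epithelium. Most tissue macrophages need signaling through CSF1R to survive, they clear dying cells and debris, and they are a main source of C1q, the recognition molecule that starts the classical complement cascade. Antibodies to IBA1 (the product of *Aif1*), CD68 and CD45 (the product of *Ptprc*) are the usual stains for these cells in the inner ear.

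The libraries were made from freshly dissociated cochleas of *LFng-GFP* BAC transgenic mice, strain B6;FVB-Tg(Lfng-EGFP)HM340Gsat/Mmucd, at postnatal day 1 (P1) and postnatal day 6 (P6). Every group carried the transgene, which drives GFP in the majority of supporting cells. The brightest cells were sorted as the GFP+ (supporting cell) fraction, and the GFP- fraction was a mixture of cochlear cells without GFP. In the study's sort, dimly fluorescent cells were left uncollected, so neither fraction holds them. This gave 4 groups (P1 GFP+, P1 GFP-, P6 GFP+ and P6 GFP-) with 2 replicate libraries each, and each library pooled sorted cells from many cochleas. By the methods, the medial part of the duct was freed of Reissner's membrane, the stria and the lateral wall at P1, whereas at P6 only some of this lateral tissue was taken off, so age and dissection cannot be told apart in any comparison of P6 with P1. Nothing in the labels says that replicates came from separate litters, and p-values therefore measure the spread between these samples, which may be technical.

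Counts on genes ranged from 17769024 (P6 GFP+ replicate 1) to 67695039 (P6 GFP- replicate 2). *Lfng*, the gene whose regulatory sequence drives the transgene, stood at 2365 to 3755 counts per 1000000 gene counts (CPM) in the 4 GFP+ libraries and at 17.2 to 45.8 in the 4 GFP- libraries. Levels are CPM unless another scale is named, and differences are edgeR log2 fold changes with their standard errors (SE). A gene is called different with p and adjusted p both under 0.01 and a fold change over 4, and counts at an adjusted p below 0.05, with no demand on the fold change, are given beside it.

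The macrophage genes were found mainly in the GFP- cells at each age. At P1, 9 of the 10 genes were called lower and 0 higher in GFP+ cells, against 11.4% and 6.46% of all genes tested, and the GFP+ mean of these 9 was 3.69% (*C1qa*) to 6.90% (*Ptprc*) of the GFP- mean. At P6, the same 9 genes were called lower and 0 higher in GFP+ cells, against 3.1% and 4.88% of all genes tested, and their GFP+ mean was 10.2% (*Csf1r*) to 19.5% (*Aif1*) of the GFP- mean. The exception at both ages was *Cd68*, whose GFP+ mean was 56.2% of the GFP- mean at P1 and 79.0% at P6. In these bulk samples, fewer macrophages and less RNA per macrophage cannot be told apart.

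**Figure D1:**
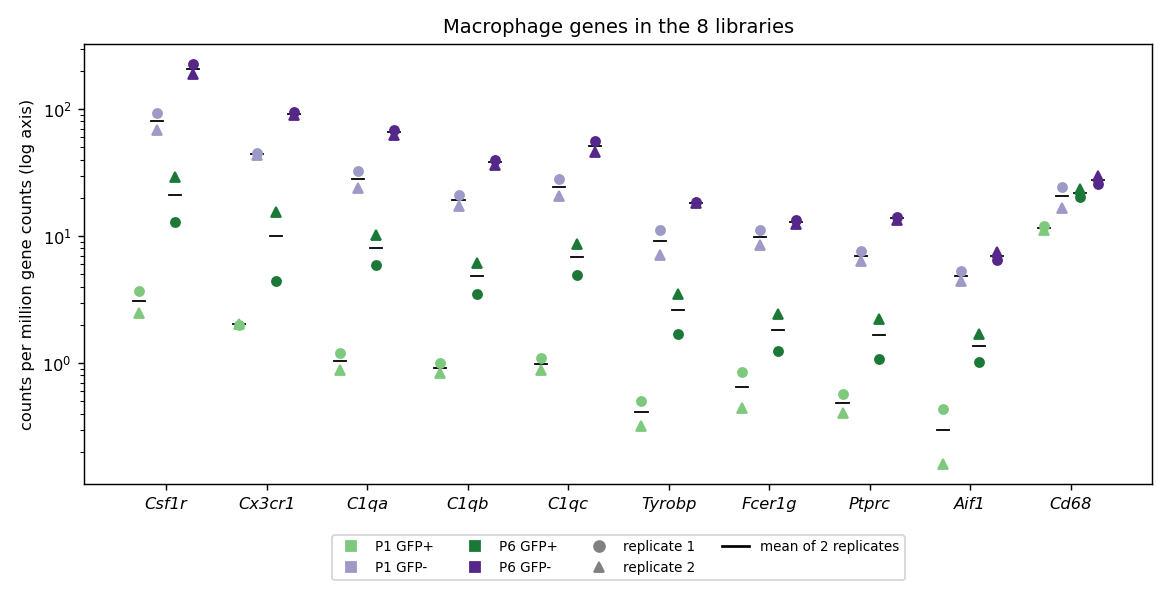
Level of each macrophage gene in the 8 libraries, in CPM on a log axis, with circles for replicate 1, triangles for replicate 2 and a bar at the mean of 2 replicates. For every gene but *Cd68*, all 4 GFP- libraries lie above all 4 GFP+ libraries, and within P6 GFP+ cells replicate 2 lies above replicate 1 for all 10 genes.

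*Csf1r* (chromosome 18, 61265226 to 61291803, plus strand) encodes the receptor for the growth factors CSF1 and IL-34. It stood at 3.69 and 2.49 CPM in the P1 GFP+ libraries, 93.4 and 69.1 in P1 GFP-, 12.9 and 29.4 in P6 GFP+, and 227 and 190 in P6 GFP- cells. It had the highest CPM of the 10 genes in all 4 GFP- libraries. The log2 fold change of GFP+ against GFP- cells was -4.57 (SE 0.25, adjusted p = 5.12e-05) at P1 and -3.31 (SE 0.40, adjusted p = 0.00406) at P6. Its exons share 871 bases, or 16.7% of their length, with *Hmgxb3* on the other strand, which held 902 to 3824 counts per library. The library kit is not one that keeps strand, so reads of the shared stretch cannot be assigned by strand.

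*Cx3cr1* (chromosome 9, 119957811 to 119977400, minus strand) encodes the receptor for the chemokine fractalkine. It stood at 2.01 and 2.05 CPM in P1 GFP+, 45.4 and 43.9 in P1 GFP-, 4.45 and 15.6 in P6 GFP+, and 94.2 and 89.9 in P6 GFP- cells. Its replicates were the closest of the 10 genes in P1 GFP+ and P1 GFP- cells and the furthest apart in P6 GFP+ cells, where replicate 2 was 3.52 times replicate 1. The log2 fold change of GFP+ against GFP- cells was -4.35 (SE 0.13, adjusted p = 1.09e-05) at P1 and -3.19 (SE 0.54, adjusted p = 0.00988) at P6.

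*C1qa*, *C1qb* and *C1qc* encode the A, B and C chains that assemble into C1q. The genes lie side by side on the minus strand of chromosome 4, with *C1qb* at 136436044 to 136442102, *C1qc* at 136445719 to 136448980 and *C1qa* at 136451832 to 136454718. *C1qa* stood at 1.2 and 0.88 CPM in P1 GFP+, 32.8 and 23.8 in P1 GFP-, 5.97 and 10.2 in P6 GFP+, and 68.6 and 63.2 in P6 GFP- cells. *C1qb* stood at 1.00 and 0.84 CPM in P1 GFP+, 21.2 and 17.4 in P1 GFP-, 3.49 and 6.16 in P6 GFP+, and 40.0 and 36.6 in P6 GFP- cells. *C1qc* stood at 1.09 and 0.88 CPM in P1 GFP+, 28.1 and 20.7 in P1 GFP-, 4.95 and 8.70 in P6 GFP+, and 55.9 and 46.4 in P6 GFP- cells. No C1q gene had overlapping groups, and the order of the groups was the same for each: P1 GFP+, P6 GFP+, P1 GFP- and P6 GFP- from lowest to highest. The log2 fold changes of GFP+ against GFP- cells ran from -4.25 (*C1qb*) to -4.61 (*C1qa*) at P1 and from -2.90 (*C1qc*) to -3.02 (*C1qa*) at P6, with a highest adjusted p of 0.00252.

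The ratio between the C1q chains was much steadier than their levels. On the RPKM scale, which divides the CPM of a gene by its exon length in kilobases, *C1qb* was 0.55 to 0.91 times *C1qa* in the 8 libraries, and *C1qc* was 0.40 to 0.54 times *C1qa*. Over the same libraries the RPKM of *C1qa* ran from 0.85 (P1 GFP+ replicate 2) to 65.9 (P6 GFP- replicate 1). The highest ratios came from the P1 GFP+ libraries, where *C1qa* had only 55 and 22 counts.

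The RefSeq table of promoters (GRCm38.p6, a later build than that of the counts) held 7 of the 10 genes, and the 250 bases before the start were searched for 3 motifs on both strands: GAGGAA, the core of many PU.1 sites, GGAAGT, an ETS core that can overlap it through the shared GGAA, and TGAGTCA, the AP-1 site. PU.1, encoded by *Spi1*, is the ETS factor needed for macrophage development. GAGGAA or its reverse complement was present for 5 of the 7 genes (*Aif1*, *C1qb*, *C1qc*, *Cd68* and *Ptprc*) and in 23.3% of 32851 promoters. GGAAGT was present for 3 of the 7 (*C1qb*, *C1qc* and *Ptprc*) and in 19.7% of all promoters, and TGAGTCA for 1 of the 7 (*Cd68*) and in 4.46%. The shares count promoters and not genes. By promoter, the 7 genes had 8, of which 5 held GAGGAA, 4 held GGAAGT and 1 held TGAGTCA. *Ptprc* had more than 1 promoter, and only 1 of them held GAGGAA. Its promoters overlap, at chr1:138175306-138175555 and chr1:138175127-138175376. The complement of GGAAGT at -58 to -53 in the former is the same site as that at -237 to -232 in the latter. The motifs were chosen with the expression values known, and a match is a description of these letters only. The C1q promoters are shown as a pair from the same gene cluster, 5′ to 3′ on the minus strand, with the matched motifs in capitals, at chr4:136886201-136886450 for *C1qb* and chr4:136892915-136893164 for *C1qc*.
C1qb: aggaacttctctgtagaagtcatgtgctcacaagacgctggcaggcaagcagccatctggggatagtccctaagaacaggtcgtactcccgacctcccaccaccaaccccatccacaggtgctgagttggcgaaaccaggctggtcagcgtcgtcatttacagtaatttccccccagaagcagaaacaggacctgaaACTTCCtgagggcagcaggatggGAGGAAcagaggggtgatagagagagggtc
C1qc: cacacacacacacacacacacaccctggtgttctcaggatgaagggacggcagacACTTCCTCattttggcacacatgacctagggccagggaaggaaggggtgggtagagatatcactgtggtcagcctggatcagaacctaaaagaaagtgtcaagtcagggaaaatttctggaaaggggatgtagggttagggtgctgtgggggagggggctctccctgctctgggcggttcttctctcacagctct
In *C1qb* both motifs stand apart, with GAGGAA at bases -30 to -25 and the complement of GGAAGT at -53 to -48. In *C1qc* the complements of both motifs overlap in a run that begins 195 bases before the start.

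*Tyrobp* and *Fcer1g* encode small adaptors whose ITAM motifs carry the signal of many myeloid receptors, *Tyrobp* (DAP12) for TREM2 among others and *Fcer1g* for Fc receptors. *Tyrobp* (chromosome 7, 31198807 to 31202596, plus strand) stood at 0.50 and 0.32 CPM in P1 GFP+, 11.1 and 7.12 in P1 GFP-, 1.69 and 3.52 in P6 GFP+, and 18.5 and 18.1 in P6 GFP- cells. *Fcer1g* (chromosome 1, 173159703 to 173164496, minus strand) stood at 0.85 and 0.44 CPM in P1 GFP+, 11.1 and 8.45 in P1 GFP-, 1.24 and 2.44 in P6 GFP+, and 13.3 and 12.6 in P6 GFP- cells. The log2 fold changes of GFP+ against GFP- cells were -4.29 (SE 0.38) for *Tyrobp* and -3.73 (SE 0.36) for *Fcer1g* at P1, and -2.79 for each gene at P6 (SE 0.36). The count of *Tyrobp* was 0.59 to 1.00 times that of *Fcer1g* in the 4 P1 libraries and 1.36 to 1.44 times in the 4 P6 libraries, with no overlap between the ages.

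*Ptprc* and *Aif1* were the lowest of the 10 genes per length in every group. *Ptprc* (chromosome 1, 139959438 to 140071882, minus strand) stood at 0.57 and 0.40 CPM in P1 GFP+, 7.68 and 6.37 in P1 GFP-, 1.07 and 2.24 in P6 GFP+, and 14.1 and 13.5 in P6 GFP- cells. *Aif1* (chromosome 17, 35307936 to 35313013, minus strand), which encodes an actin-binding protein of ruffling membranes, stood at 0.44 and 0.16 CPM in P1 GFP+, 5.33 and 4.45 in P1 GFP-, 1.01 and 1.71 in P6 GFP+, and 6.44 and 7.55 in P6 GFP- cells. The lowest of these values, 0.16 CPM, rests on 4 counts. The log2 fold changes of GFP+ against GFP- cells were -3.70 (SE 0.30) for *Ptprc* and -3.79 (SE 0.43) for *Aif1* at P1, and -3.03 (SE 0.38) and -2.34 (SE 0.35) at P6.

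*Cd68* (chromosome 11, 69477715 to 69479655, minus strand) encodes a glycoprotein of lysosomal and endosomal membranes. It stood at 12 and 11.2 CPM in P1 GFP+, 24.5 and 16.7 in P1 GFP-, 20.3 and 23.6 in P6 GFP+, and 25.6 and 30.0 in P6 GFP- cells. The GFP+ libraries lay below the GFP- libraries of the same age, but P6 GFP+ overlapped P1 GFP- cells, which no other gene of the set did. The log2 fold change of GFP+ against GFP- cells was -0.72 (SE 0.21, adjusted p = 0.0308) at P1 and -0.35 (SE 0.18, adjusted p = 0.185) at P6. Without either P1 GFP+ replicate, 9 in place of 10 genes had an adjusted p below 0.05 at P1.

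Relative to the other macrophage genes of the same library, *Cd68* was higher in GFP+ than in GFP- cells, although its own level was lower. *Cd68* had 9.96 and 12.7 counts per count of *C1qa* in the P1 GFP+ libraries, 3.41 and 2.30 in P6 GFP+, 0.75 and 0.70 in P1 GFP-, and 0.37 and 0.48 in P6 GFP- libraries. It made up 51.3% and 56.9% of the summed counts of the 10 genes in P1 GFP+ cells and 4.54% and 5.91% in P6 GFP- cells. On the same strand, *Cd68* starts 782 bases past the end of *Eif4a1*, a translation factor gene with 6597 to 17594 counts per library, and the part of *Eif4a1* reads running past its annotated end was not tested. Its promoter (GRCm38.p6, chr11:69666171-69666420, minus strand) is shown because *Cd68* stood apart from the other genes, and it was the only promoter of the 7 genes with the letters of the AP-1 site, at bases -149 to -143 and -24 to -18, besides GAGGAA at -225 to -220. The motifs are in capitals.
Cd68: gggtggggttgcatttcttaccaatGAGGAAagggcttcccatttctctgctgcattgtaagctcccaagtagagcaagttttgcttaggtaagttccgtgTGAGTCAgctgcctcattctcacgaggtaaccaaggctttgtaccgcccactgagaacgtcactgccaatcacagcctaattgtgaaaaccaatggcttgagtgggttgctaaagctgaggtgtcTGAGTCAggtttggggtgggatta

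**Figure D2:**
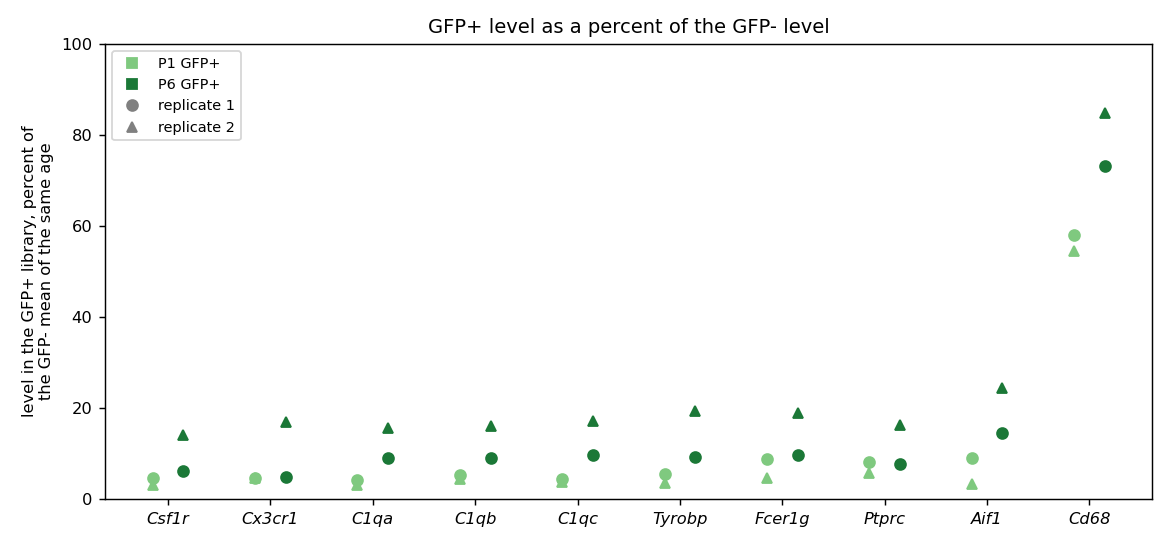
Level in each GFP+ library as a percent of the GFP- mean of the same age, for the 10 macrophage genes, with light points for P1, dark points for P6, circles for replicate 1 and triangles for replicate 2. The P1 points of 9 genes lie between 3.07% and 8.92%, the P6 points of the same genes between 4.83% and 24.4%, and the *Cd68* points between 54.4% and 84.9%.

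Per length, *C1qa* was the highest of the 10 genes in GFP- cells, with an RPKM of 27.2 ± 6.13 (SD, n = 2) at P1 and 63.3 ± 3.69 at P6. In P1 GFP- cells, *C1qb*, *Cd68*, *Tyrobp*, *Csf1r*, *C1qc*, *Fcer1g* and *Cx3cr1* followed between 17.8 and 12, and each overlapped its neighbour in that order. In P6 GFP- cells, *Csf1r* moved to the second place with 39.9 ± 4.93, overlapping *C1qb* (35.2 ± 2.20), and *Cd68* was the seventh with 22.1 ± 2.49. In GFP+ cells *Cd68* led at both ages, with 9.21 ± 0.42 at P1 and 17.5 ± 1.85 at P6, and did not overlap *C1qa* in the second place. *Aif1* and *Ptprc* were the ninth and the tenth in all 4 groups, without overlap.

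The 9 called genes at P6 were less certain than those at P1. In P6 GFP+ cells, replicate 2 was above replicate 1 for all 10 genes, by 1.16 times (*Cd68*) to 3.52 times (*Cx3cr1*). Without P6 GFP- replicate 1, only *C1qa* was called, and without P6 GFP- replicate 2, 0 of the 10 genes and 0 of all genes were called by edgeR, although 9 and 8 of the 10 genes kept an adjusted p below 0.05. The fold changes hardly moved in those fits, and *Csf1r*, for example, stood at -3.12 and -3.45. In the full comparison, 9 of 10 genes had an adjusted p below 0.05 at P6, against 17.9% of all genes tested, and all 10 at P1, against 28.1%, each of them lower in GFP+ cells (25.5% of all genes were higher at P1).

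**Figure D3:**
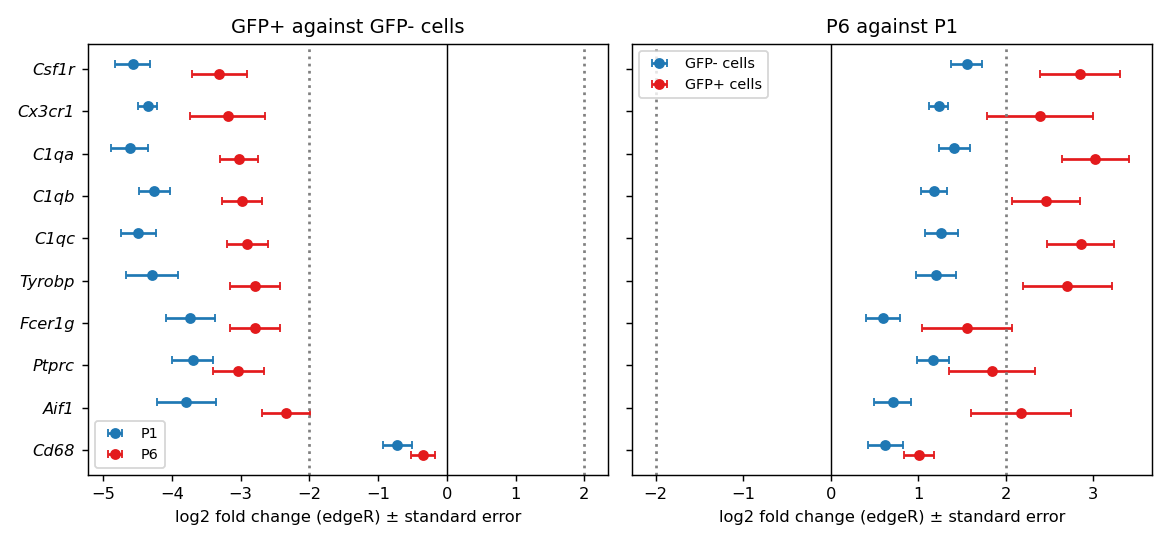
Log2 fold change of the 10 macrophage genes from edgeR, with bars for the standard error: GFP+ against GFP- cells (left, P1 in blue and P6 in red) and P6 against P1 (right, GFP- cells in blue and GFP+ cells in red). Dotted lines mark a fold change of 4, which *Cd68* does not reach in any comparison and which no gene reaches in the GFP- cells between the ages.

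All 10 genes were higher at P6 than at P1 in the GFP- cells, by 1.33 times (*Fcer1g*) to 2.57 times (*Csf1r*) in mean CPM. The P6 libraries lay above the P1 libraries for each gene. The log2 fold changes ran from 0.60 (*Fcer1g*, SE 0.19, adjusted p = 0.0737) to 1.55 (*Csf1r*, SE 0.18, adjusted p = 0.00225). *Cx3cr1* had the lowest adjusted p, with 1.24 (SE 0.11, adjusted p = 0.000893), and the C1q genes lay between 1.18 and 1.42. By edgeR, 0 of the 10 genes were called, since none reached a fold change of 4 (1.43% of all genes were called higher), 7 had an adjusted p below 0.05 (against 11.3% of all genes higher and 7.87% lower), and all 10 had an unadjusted p below 0.05. DESeq2 also called 0, with 10 at an adjusted p below 0.05. The genes that missed 0.05 in edgeR were *Aif1* (adjusted p = 0.0624), *Cd68* (0.0719) and *Fcer1g*.

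Which libraries entered decided some of these calls. The count at an adjusted p below 0.05 was 10 without P1 GFP- replicate 1, 6 without P6 GFP- replicate 2 and 5 without P6 GFP- replicate 1, and *Tyrobp* had an adjusted p of 0.0649 and 0.0942 without P6 GFP- replicate 2 and replicate 1. Scaling by library totals in place of TMM moved the median of all genes in this comparison from -0.02 to -0.21 on the log2 scale and left 7 genes with an adjusted p below 0.05, all higher at P6.

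In the GFP+ cells, the means of the 10 genes were 1.90 times (*Cd68*) to 7.78 times (*C1qa*) higher at P6 than at P1. The P6 libraries lay above the P1 libraries for each gene. Only *C1qa* was called (log2 fold change 3.02, SE 0.38, adjusted p = 0.00931), against 1.63% of all genes called higher and 0.93% lower, and 7 genes had an adjusted p below 0.05, against 12.1% of all genes higher and 8.31% lower. *Aif1* (adjusted p = 0.0528), *Ptprc* (0.0552) and *Fcer1g* (0.0906) did not. These counts turned on single libraries: without P1 GFP+ replicate 2 the numbers called and at an adjusted p below 0.05 were 0 and 0, with all 10 genes still higher at P6. Without P1 GFP+ replicate 1 they were 3 and 6, without P6 GFP+ replicate 1 they were 8 and 10, and without P6 GFP+ replicate 2 they were 5 and 8.

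For all 10 genes, the GFP+ level came closer to the GFP- level at P6 than at P1, but the difference between the ages did not pass the test. The interaction of age and fraction, which is the P6 log2 ratio minus the P1 log2 ratio, ran from 0.36 (*Cd68*, SE 0.28) to 1.58 (*C1qa*, SE 0.40). By edgeR, 0 of the 10 genes had an adjusted p below 0.05, against 3.6% of all genes with a positive and 2.79% with a negative difference, and 6 had an unadjusted p below 0.05. The lowest adjusted p was 0.0563 (*C1qa*), followed by 0.0627 (*C1qc*) and 0.0919 (*C1qb*). DESeq2 gave 3 genes past this threshold. Without P6 GFP+ replicate 1, 6 genes passed, and without P6 GFP+ replicate 2, 0 genes passed and the difference of *Cx3cr1* was -0.014.

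Further genes of resident macrophages and microglia followed the same split between the fractions. Of 42 such genes, among them *Emr1* (F4/80), *Itgam* and *Trem2*, 35 were called lower and 1 higher in GFP+ cells at P1, with a median log2 fold change of -3.91 (-3.84 with *Siglech*, which had 0 counts in P1 GFP+ cells, set at the limit of 3 counts over the group), where the median of all genes was 0.01. At P6, 30 were called lower and 1 higher, with a median of -2.88 against -0.02 for all genes. Of all genes tested, 11.4% were called lower and 6.46% higher at P1, and 3.1% and 4.88% at P6. At an adjusted p below 0.05, 38 of the 42 were lower at P1 and 39 at P6, against 28.1% and 17.9% of all genes. At each age 1 was higher, against 25.5% and 15.5%. The gene called higher at both ages was *Sall1*, a zinc finger factor used as a microglial marker in brain, which stood at 470 and 465 CPM in P1 GFP+ and 11.9 and 15.0 in P1 GFP- cells, and at 382 and 424 in P6 GFP+ and 18.5 and 16.4 in P6 GFP- cells. The study itself lists *Sall1* among the transcription factors of supporting cells at both ages. In GFP- cells between the ages, the median was 1.12. At P6, 30 of the 42 were higher at an adjusted p below 0.05 and 1 was lower, against 11.3% and 7.87% of all genes. The gene that was lower was *Lyve1* (log2 fold change -1.75, adjusted p = 0.00207), a hyaluronan receptor of some macrophages and of lymphatic vessels, named after its value was seen.

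The scavenger receptor gene *Stab1* stood at 9.82 and 7.79 CPM in P1 GFP+, 231 and 168 in P1 GFP-, 18 and 62.3 in P6 GFP+, and 314 and 306 in P6 GFP- cells. The mannose receptor gene *Mrc1* stood at 7.46 and 4.42 CPM in P1 GFP+, 170 and 130 in P1 GFP-, 12.5 and 34.9 in P6 GFP+, and 245 and 206 in P6 GFP- cells. The transcription factor gene *Maf* stood at 5.17 and 6.23 CPM in P1 GFP+, 106 and 130 in P1 GFP-, 17.1 and 49.8 in P6 GFP+, and 225 and 210 in P6 GFP- cells. At P1 all were called lower in GFP+ cells, and in P6 libraries *Mrc1* was called lower (adjusted p = 0.0068) while *Stab1* and *Maf* had adjusted p-values of 0.0133 and 0.0114.

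The ligands of the member receptors were also more abundant in the GFP- fraction. *Csf1*, a ligand of CSF1R, stood at 2.62 and 2.61 CPM in P1 GFP+, 54.5 and 43.0 in P1 GFP-, 2.98 and 11.1 in P6 GFP+, and 64.0 and 60.5 in P6 GFP- cells. *Il34*, the other ligand of CSF1R, stood at 0.50 and 0.40 CPM in P1 GFP+, 6.10 and 4.29 in P1 GFP-, 2.19 and 4.22 in P6 GFP+, and 7.70 and 7.45 in P6 GFP- cells. *Cx3cl1*, which encodes fractalkine, stood at 5.96 and 5.91 CPM in P1 GFP+, 15.0 and 16.4 in P1 GFP-, 6.02 and 14.6 in P6 GFP+, and 60.0 and 52.1 in P6 GFP- cells. *Csf1* and *Il34* were called lower in GFP+ cells at P1, and *Cx3cl1* at P6 (log2 fold change -2.44, adjusted p = 0.00902). Of all genes tested, 11.4% were called lower at P1 and 3.1% at P6. At an adjusted p below 0.05, all 3 ligands were lower at each age, against 28.1% and 17.9% of all genes. Their log2 fold changes ran from -4.11 to -1.30 at P1 and from -3.13 to -1.23 at P6. *Cx3cl1* was also called higher at P6 in GFP- cells (2.03, adjusted p = 0.000433), where its receptor gene rose by 1.24, whereas *Csf1* rose by 0.54 (adjusted p = 0.0415) and *Il34* had a log2 fold change of 0.74 (adjusted p = 0.0735).

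Among 20 genes of ITAM receptors and their signaling, 17 were tested at P1, of which 9 were called lower and 0 higher in GFP+ cells, and 17 at P6, of which 7 were called lower and 0 higher. At an adjusted p below 0.05, 12 were lower at each age, and 2 were higher at P1 and 0 at P6. Of all genes tested, 11.4% were called lower and 6.46% higher at P1, and 3.1% and 4.88% at P6. At an adjusted p below 0.05, 28.1% of all genes were lower and 25.5% higher at P1, and 17.9% and 15.5% at P6. The median log2 fold changes of the ITAM list were -3.27 at P1 and -2.43 at P6. The Fc receptor genes *Fcgr1*, *Fcgr2b* and *Fcgr3*, the first and last of which use the *Fcer1g* adaptor, lay between -3.95 and -5.56 at P1, and from -2.96 to -3.33 in P6 libraries. *Inpp5d* (the phosphatase SHIP1) stood at 0.63 and 1.08 CPM in P1 GFP+ and 16.1 and 11.6 in P1 GFP- cells and was called lower at both ages. *Sirpa*, *Ptpn6* and *Lyn*, which other cells express too, did not share the pattern: *Sirpa* stood at 95.1 and 97.3 CPM in P1 GFP+ and 92.8 and 106 in P1 GFP- cells, *Ptpn6* (the phosphatase SHP-1) was higher in GFP+ cells at P1 (log2 fold change 1.4, adjusted p = 0.000268), and *Lyn* was lower by less than a fold change of 4 (-0.79, adjusted p = 0.00941).

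Of 16 complement genes other than C1q, 14 were tested at each age. At P1, 8 were called lower and 1 higher in GFP+ cells, against 11.4% and 6.46% of all genes tested. At P6, 3 were called lower and 1 higher, against 3.1% and 4.88%. At an adjusted p below 0.05, 11 were lower and 1 higher at P1, against 28.1% and 25.5% of all genes. For P6 these counts were 7 lower and 1 higher, against 17.9% and 15.5%. The gene called higher was *Masp1*, a protease of the lectin pathway, at 283 and 304 CPM in P1 GFP+ and 9.0 and 10.0 in P1 GFP- cells, and at 109 and 129 in P6 GFP+ and 10.6 and 10.7 in P6 GFP- cells. *C2* and *Cd93* had log2 fold changes of -1.22 and -1.91 at P1 and of -0.85 (adjusted p = 0.0114) and 0.04 (adjusted p = 0.967) at P6.

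Other lists touching on myeloid cells gave weaker differences. Beside their counts, 11.4% of all genes tested were called lower and 6.46% higher at P1, and 3.1% and 4.88% at P6. At an adjusted p below 0.05, 28.1% of all genes were lower and 25.5% higher at P1, and 17.9% and 15.5% at P6. Of 11 genes of antigen presentation and dendritic cells, 9 were tested at P1 and 11 at P6, 2 were called lower in GFP+ cells at each age and 0 higher, and these were *Batf3* and *Cd86* both times, named after their values were seen. At an adjusted p below 0.05 this list went both ways, with 4 lower and 4 higher at P1, and 4 lower and 1 higher at P6. The most abundant of this list, *Zbtb46*, *Cd83*, *H2-DMa* and *H2-DMb1*, were not called at either age and did not exceed 35.5 CPM in any library. Of 8 monocyte genes, 5 were tested at each age, and 3 were called lower at P1 and 1 at P6 in GFP+ cells, with 4 lower and 1 higher at P1 and 2 lower and 0 higher at P6 at an adjusted p below 0.05. *Ccr2* and *Chi3l3*, which mark circulating monocytes among other cells, had 0 counts in P1 GFP+ cells. *Vcan* fell with age in GFP- cells, from 373 and 372 CPM at P1 to 102 and 70.8 at P6 (log2 fold change -1.91, adjusted p = 0.00142). *Nr4a1*, which is also an immediate early gene, stood at 370 to 842 CPM in all 8 libraries, *Plac8* did not exceed 1.87 CPM and *Ly6c1* did not exceed 4.82.

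Lysosome and engulfment genes, the group to which *Cd68* is nearest in function, were much less split between the fractions. Of 15 such genes, 2 at P1 and 0 at P6 were called lower in the GFP+ fraction, with 0 higher at either age, beside 11.4% and 3.1% of all genes called lower, so the calls were near the background. The medians were -0.43 and -0.61, between the values of *Cd68* and of all genes at P1 and below the value of *Cd68* at P6. At an adjusted p below 0.05, 10 were lower and 1 higher at P1, against 28.1% and 25.5% of all genes. For P6 the counts were 6 lower and 0 higher, against 17.9% and 15.5%, so at both ages the lower genes exceeded the background. *Lamp1* stood at 313 and 321 CPM in P1 GFP+ and 267 and 278 in P1 GFP- cells, and *Ctsd* at 237 and 260 and at 341 and 379. In GFP- cells between the ages, 10 of the 15 were higher at P6 at an adjusted p below 0.05, against 11.3% of all genes. *Ctsb*, *Ctsd*, *Lamp1* and *Lamp2* were among them, with log2 fold changes of 0.54 to 0.88.

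**Figure D4:**
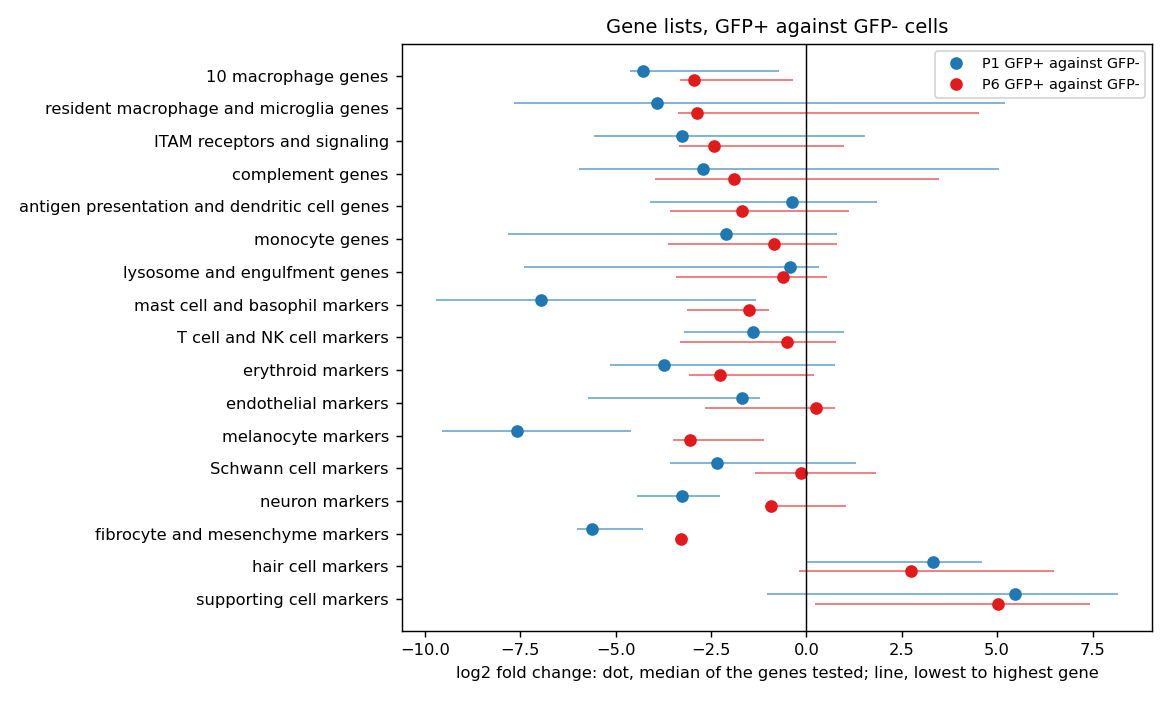
Log2 fold change of GFP+ against GFP- cells by gene list, at P1 in blue and at P6 in red, with a dot at the median of the genes tested and a line from the lowest to the highest gene. The 10 macrophage genes have medians of -4.27 at P1 and -2.94 at P6, the lysosome and engulfment genes of -0.43 and -0.61, and the far ends of some P1 lines are fitted values of genes with 0 counts in GFP+ cells.

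Markers of neutrophils and B cells were sparse next to those of macrophages, whereas erythroid markers were not. Together, 7 erythroid markers came to 6.63 to 13.2 CPM in P1 GFP+, 240 to 259 in P1 GFP-, 22.3 to 78.7 in P6 GFP+ and 216 to 559 in P6 GFP- libraries, most of it from *Hbb-b1* and *Hba-a1*, which encode globin chains. The summed level of 10 neutrophil markers was 0.44 CPM in each P1 GFP+ library, 0.86 to 1.90 in P1 GFP-, 1.34 to 2.59 in P6 GFP+ and 1.34 to 1.38 in P6 GFP- libraries, with *Ly6g* at 0 counts in all 4 groups. For 7 B cell markers the sum was at most 3.06 CPM in any library. Of 10 T cell and NK cell markers, summed to 6.53 to 16.4 CPM, most of the level came from *Lck* and *Cd4*. *Cd4* stood at 0.31 and 0.40 CPM in P1 GFP+, 3.19 and 3.68 in P1 GFP-, 0.51 and 1.67 in P6 GFP+, and 12.4 and 10.0 in P6 GFP- cells, the only gene of its list called lower at each age. *Lck* went the other way, at 7.81 and 8.32 CPM in P1 GFP+ and 4.14 and 4.52 in P1 GFP- cells. Both P6 GFP+ libraries also lay above both P6 GFP- libraries for *Lck*. The summed GFP+ mean of these T cell and NK cell markers was 99.98% of the GFP- mean at P1 and 43.7% at P6. Summed over 8 mast cell and basophil markers, the level was 47.5 to 91.1 CPM in GFP+ and 154 to 189 in GFP- libraries, nearly all of it from *Gata2* and *Kit*, which other cells express too. Of the same list, *Fcer1a* and *Ms4a2*, the chains that join *Fcer1g* in the IgE receptor, had 0 counts in all 8 libraries, and *Cpa3* was at 4.41 CPM in P1 GFP- replicate 1 and at most 0.42 in the others. The 5 platelet markers summed to at most 9.90 CPM.

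Markers of several other cells of the GFP- fraction were also higher in the P6 than in the P1 GFP+ libraries. The summed level of the 10 macrophage genes was 19.7 to 23.3 CPM in P1 GFP+, 218 to 281 in P1 GFP-, 57.1 to 104 in P6 GFP+ and 508 to 563 in P6 GFP- libraries, so that the GFP+ mean was 8.62% of the GFP- mean at P1 and 15.0% at P6. Without *Cd68*, which held much of the GFP+ sum, these shares were 4.33% and 11.5%. The same share was 1.89% and 9.82% for 6 fibrocyte and mesenchyme markers, 1.4% and 11.0% for 6 melanocyte markers, 3.98% and 13% for 7 erythroid markers, 8.39% and 53.5% for 7 endothelial markers, and 50.1% and 115% for 6 Schwann cell markers. The summed level of these 5 lists in GFP+ cells was 4.43 times (Schwann cell) to 11.8 times (melanocyte) higher at P6 than at P1, against 3.74 times for the 10 macrophage genes and 5.90 times without *Cd68*. For 6 neuron markers the share was 12.6% and 75.2%, but their sum in GFP- cells fell to 0.26 times its P1 mean while that in GFP+ cells was 1.55 times higher. *Tubb3* was the only 1 of the 6 higher at P6 in GFP+ cells at an adjusted p below 0.05, and 0 were lower. Its GFP+ mean was 4.93 CPM at P1 and 31.7 at P6, above the 15.4 of P6 GFP- cells. The GFP+ means at P1 and P6 were 23.0 and 13.5 for *Nefm*, 10.2 and 10.4 for *Nefl*, and 4.42 and 7.62 for *Stmn2*. The P1 share of the neuron markers was 28.0% against GFP- replicate 1 (171 CPM) and 8.16% against replicate 2 (586 CPM). The P6 share of the erythroid markers also turned on the GFP- library, at 23.3% against replicate 1 and 9.02% against replicate 2. The summed level of the 42 resident macrophage genes gave 58.1% at P1 and 43.4% at P6, but in GFP+ cells most of that sum was *Sall1*.

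Within the P6 GFP+ cells, the same lists were higher in replicate 2. The median ratio of replicate 2 to replicate 1 was 1.87 for the 10 macrophage genes, 1.84 for the 42 resident macrophage genes, 3.49 for the fibrocyte and mesenchyme, 3.14 for the melanocyte, 3.59 for the erythroid, 3.97 for the endothelial, 2.14 for the Schwann cell and 1.67 for the neuron markers. It was 0.85 for the supporting cell markers, 0.99 for the lysosome and engulfment genes and 1.34 for the hair cell markers. The summed supporting cell markers stood at 6266 CPM in replicate 1 and 4477 in replicate 2 of P6 GFP+, against 372 to 374 in P6 GFP- cells. At each age 6 of the 7 were called higher in GFP+ cells, against 6.46% of all genes at P1 and 4.88% at P6. The other, *Slc1a3*, stood at 157 and 157 CPM in P1 GFP+, 379 and 312 in P1 GFP-, 252 and 268 in P6 GFP+, and 217 and 230 in P6 GFP- cells. The summed fibrocyte and mesenchyme markers stood at 309 to 321 CPM in P1 GFP+, 974 and 3374 in P6 GFP+ replicates 1 and 2, 15369 to 17936 in P1 GFP- and 21273 to 23019 in P6 GFP- libraries, with none of the 6 at 0. Against the same P6 GFP- means, the summed macrophage genes came to 10.7% in replicate 1 and 19.4% in replicate 2, and the fibrocyte and mesenchyme markers to 4.40% and 15.2%. The part of these other cells in the levels of the macrophage genes in GFP+ libraries was not tested.

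Of the 10 genes, *C1qb* and *Tyrobp* lay nearest to the median profile of the set over the 8 libraries, and *Cd68* lay furthest, with root mean square differences of 0.10, 0.12 and 1.39 log2 units after centring. The *Cd68* value ranked 2647 among all genes with a mean of at least 1 CPM. The 8 other genes with the most similar profile, over the same 8 libraries, were *Sepp1* (0.13), *Gstt1* (0.14), *Srpx2* (0.15), *Aard* (0.16), *Fcgr3* (0.17), *Pld4* (0.19), *Mef2c* (0.19) and *Loxl1* (0.20). *Sepp1* encodes selenoprotein P, *Fcgr3* a low-affinity Fc receptor and *Loxl1* an enzyme that cross-links elastin. *Sepp1* was also the most abundant of these, at 34.8 and 30.3 CPM in P1 GFP+, 452 and 333 in P1 GFP-, 94.3 and 200 in P6 GFP+, and 824 and 776 in P6 GFP- cells. They were chosen for likeness, and the points share library, depth and cell mixture, so this is a description only.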

How the data were processed

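RNA was measured in 8 libraries of sorted cochlear cells, grouped by labelled age and fraction. The deposited tables give raw counts for Ensembl genes: per the methods and the submitters' processing notes, the authors aligned paired reads to mm9 with TopHat (1.4.0 in the notes) and counted them with HTSeq, without normalization. The counting mode is not given in the sources used here. Rows that name no gene (23.8% to 35.3% of the listed reads) were left out, as were reads aligned at several places. Libraries held 17769024 to 67695039 gene counts, which with 2 replicates per group sets the precision. Replicates differed by more than sampling noise (chi-square per degree of freedom 15.1 to 58.0).

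Symbols, positions and exon lengths came from the NCBIM37 annotation, and RPKM used the summed exon length. CPM are counts per 1000000 gene counts. Each comparison was fitted on its libraries with edgeR 4.0.16 (R 4.3.3), using filterByExpr (minimum count 10, minimum total 15), TMM, the quasi-likelihood test and Benjamini-Hochberg adjustment over all genes tested, and the interaction was fitted on all 8 libraries. Standard errors are the log2 fold change divided by the square root of F. The procedure was tested on simulated data.

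The members and gene lists were chosen with earlier results of these data known. Named from each list are the 4 genes with the highest mean CPM and all 3 ligands, and similar genes are the 8 others with the smallest root mean square difference from the median profile (pseudocount 0.5 CPM, mean of at least 1 CPM). Alternatives were DESeq2 1.42.0 (test or size factors), library totals, no filter, a replicate block, all 8 libraries, glmTreat against a fold change of 4 and leaving out each replicate. A crossed replicate block was chosen after seeing the data. Of the list genes, *Ciita* (2 IDs) and *Ahsp* were left out. Some genes of the lists are not reported here by name.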

Additional observations from a re-analysis of the deposited data

Results flagged for a closer look

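For 18 named genes the difference between the ages in the log2 ratio of GFP+ to GFP- cells passed the edgeR interaction test at an adjusted p below 0.05, and none of them is among the 10 macrophage genes. Positive values mean a ratio that was higher at P6 than at P1. Of the 183 genes tested in all lists, 18 passed with a positive and 3 with a negative difference (9.84% and 1.64%), beside 3.6% and 2.79% of all genes, and the 3 that are not named below belong to the melanocyte, Schwann cell and endothelial lists.

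Among genes related to macrophages, the difference was 2.13 for *Il34*, 1.64 for *Lcp1*, an actin-bundling protein of leukocytes, 2.30 for *Ly86*, -0.99 for *Ptpn6*, -1.58 for *Masp1* and -1.44 for *Nr4a1*. In the lysosome and engulfment list, it was 3.96 for *Gpnmb*, 1.42 for *Axl* and 0.99 for *Pros1*, 3 of 15 genes. *Lcp1*, *Ly86*, *Gpnmb*, *Axl* and *Pros1* were named after their values were seen.

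Among markers of other cells, the difference was 3.88 for *Dct*, 2.66 for *Pmel*, 5.21 for *Tyr* and 4.66 for *Pax3* in the melanocyte list, 3.24 for *Pmp22* in the Schwann cell list, 4.59 for *Tubb3* in the neuron list, 3.06 for *Emcn* in the endothelial list, 1.68 for *Itga2b* in the platelet list and 1.23 for *Slc1a3* in the supporting cell list.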

How the results depend on the processing

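The 10 genes were recomputed under every alternative, which gave 580 log2 fold changes or interaction differences, and 579 of them kept their direction. The reversed value was the interaction of *Cx3cr1*, at -0.014 without P6 GFP+ replicate 2 and up to 1.74 with any other replicate left out. At P1 the count of genes called was between 8 and 9 under every alternative, with 9 as reported, and 9 to 10 had an adjusted p below 0.05. At P6 it was 0 of 9 under glmTreat against a fold change of 4, which asks that the change exceed that fold, and 0 to 9 when each replicate was left out, while the count at an adjusted p below 0.05 was 8 to 10. In GFP- cells between the ages, 0 were called under every alternative and 5 to 10 had an adjusted p below 0.05. In GFP+ cells between the ages, in place of 1 called gene there were 0 with library totals, 6 with DESeq2, 7 with no filter on low counts, 6 with all 8 libraries in the fit and 0 under glmTreat, and 0 to 8 when each replicate was left out, and the count at an adjusted p below 0.05 was then 0 to 10, with 7 as reported. For the interaction, in place of 0 there were 3 genes with DESeq2, 7 with no filter, and 0 to 6 when each replicate was left out. The cause was not tested.

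Samples with the same replicate number did not deviate together, with correlations of replicate differences of 0.02, 0.08, -0.30 and -0.09 for P1, P6, GFP- and GFP+ comparisons. The labels do not say whether GFP+ and GFP- samples of the same number came from the same sort. With a replicate block, 3 in place of 1 of the 10 genes were called in GFP+ cells between the ages, and the other counts were 9, 9, 0 and 0. Crossing the numbers in GFP- cells, chosen after seeing the data, gave 0 called and 10 at an adjusted p below 0.05.

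Over all genes, the counts called were 3331 at P1 (1500 to 3748 under other settings), 1459 at P6 (191 to 2528, and 0 to 3261 with a replicate left out), 350 in GFP- (53 to 661, and 131 to 674) and 441 in GFP+ cells between the ages (20 to 1387, and 135 to 1641), and 1228 for the interaction (750 to 3201, and 337 to 2991). With library totals in place of TMM, the share of higher calls moved from 61.1% to 73.9% at P6, from 77.4% to 65.8% in GFP- cells between the ages and from 56.4% to 67.0% for the interaction, whose median over all genes moved from 0.03 to 0.16. Where a fraction was left with 1 library, that library was assumed to vary like the other groups. The lowest value of the 10 genes rests on 4 counts (*Aif1* in P1 GFP+ replicate 2).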

Other observations

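Several low genes of antigen presentation and myeloid cells were measured in P6 GFP- libraries, and the following were named after their values were seen. *H2-Aa*, a chain of a class II molecule, had 0 and 0 counts in P1 GFP+, 7 and 14 in P1 GFP-, 1 and 10 in P6 GFP+, and 75 and 69 in P6 GFP- libraries, and was called higher at P6 in GFP- cells by edgeR (log2 fold change 2.62, adjusted p = 0.00679). *H2-Eb1*, a chain of another class II molecule, had 25 and 81 counts in P1 GFP- and 59 and 84 in P6 GFP- libraries (log2 fold change 0.34, adjusted p = 0.586). *Siglech*, a lectin of microglia and plasmacytoid dendritic cells, had 0 and 0 counts in P1 GFP+, 29 and 30 in P1 GFP-, 7 and 17 in P6 GFP+, and 134 and 189 in P6 GFP- libraries, and was also called higher at P6 in GFP- cells (2.21, adjusted p = 0.00808). *Ccr2*, the chemokine receptor of inflammatory monocytes, had 17 and 55 counts in P1 GFP- and 88 and 89 in P6 GFP- libraries, beside 0 and 0 in P1 GFP+ and 4 and 1 in P6 GFP+ libraries.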
